A study of Mus musculus with 12 samples.

Results

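RNA of 36 genes of the skeletal muscle fibre was followed through 12 libraries of mouse sciatic nerve. The 36 were taken by symbol out of 43432 genes in the count table: 14 that mark fast-twitch fibres, 6 that mark slow-twitch fibres and 16 that both fibre types use for contraction, calcium release or energy supply. These genes were selected with values from these same libraries known, so their levels, fold changes and counts of calls are given as a description with no test. Each library came from one sciatic nerve of a mouse about 1 month old, and each group held both sexes. The groups were 4 WT control mice (*Mtmr2* wt/wt, replicates 4497 to 4500), 4 *Mtmr2* KO mice (*Mtmr2* -/-, replicates 4501 to 4504), both labelled as having had no treatment, and 4 *Mtmr2* KO mice given niacin (replicates 4505 to 4508). The paper describes the *Mtmr2* KO mice compared with niacin as vehicle treated. Niacin was injected intraperitoneally at 120 mg/kg from postnatal day 10 to day 21, and slow-release niacin was then given by gavage up to day 30. *Mtmr2* encodes a phosphoinositide phosphatase whose loss causes a demyelinating Charcot-Marie-Tooth neuropathy. The *Mtmr2* KO against WT control comparison asks what loss of the gene did to nerve RNA, and the niacin comparisons ask what treatment changed on that background.

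A skeletal muscle fibre contracts when calcium released from the sarcoplasmic reticulum binds troponin C and moves the troponin complex aside, so that the myosin heads can pull on actin. Most parts of this machine exist as paired isoforms encoded by separate genes. Slow, oxidative type I fibres use *Myh7*, *Tnni1*, *Tnnt1*, *Tnnc1*, *Myl2* and *Myl3*, while fast fibres use *Tnni2*, *Tnnt3*, *Tnnc2*, *Mylpf* and *Myl1* with 1 of 3 myosin heavy chains: *Myh2* in type IIA, *Myh1* in type IIX and *Myh4* in the most glycolytic type IIB fibres. The sciatic nerve itself consists of axons, Schwann cells and connective tissue layers and runs between hindlimb muscles, whose fibres are not part of it.

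Libraries held 20763951 to 33191106 counts. *Mbp*, which encodes myelin basic protein and marks the myelinating Schwann cells of the labelled tissue, stood at 21333 to 33529 CPM (read counts scaled to library size with TMM factors). *Mtmr2* itself ranged from 128 to 161 CPM in WT control and from 66.7 to 84.6 CPM in all *Mtmr2* KO and niacin-treated libraries except the library labelled *Mtmr2* KO 4503, where it was 143 CPM, within the WT control range. The counts, medians and group means of the comparisons that use this library are therefore also given without it.

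The genes of the 3 fast myosin heavy chains lie side by side on the forward strand of chromosome 11 of GRCm38, *Myh2* at chr11:67171027-67197517, *Myh1* at chr11:67200052-67224575 and *Myh4* at chr11:67238029-67260446, yet their RNA followed different patterns in these nerves. The 250 bases before the RefSeq start of each are shown (GRCm38.p6, *Myh4* at chr11:67237562-67237811, *Myh1* at chr11:67199852-67200101 and *Myh2* at chr11:67170777-67171026, all on the forward strand), beside those of the skeletal actin gene *Acta1* (chr8:123894776-123895025, reverse strand), which was high where *Myh4* was, and of slow troponin I, *Tnni1* (chr1:135799171-135799420, forward strand), which was not. Capitals mark matches on either strand to a CArG box (bound by serum response factor), a MEF2 site (bound by MEF2 factors) or the MCAT letters CATTCC (bound by TEAD factors).
*Myh4*: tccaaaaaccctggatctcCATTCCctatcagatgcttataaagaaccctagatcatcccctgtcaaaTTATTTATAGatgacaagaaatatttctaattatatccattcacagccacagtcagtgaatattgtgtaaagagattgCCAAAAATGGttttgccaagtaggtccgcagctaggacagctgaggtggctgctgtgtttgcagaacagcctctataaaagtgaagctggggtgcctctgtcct
*Myh1*: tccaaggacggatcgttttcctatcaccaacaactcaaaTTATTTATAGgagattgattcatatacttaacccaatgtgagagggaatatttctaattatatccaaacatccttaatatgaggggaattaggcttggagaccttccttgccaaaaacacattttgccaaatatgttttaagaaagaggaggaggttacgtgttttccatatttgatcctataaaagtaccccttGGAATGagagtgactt
*Myh2*: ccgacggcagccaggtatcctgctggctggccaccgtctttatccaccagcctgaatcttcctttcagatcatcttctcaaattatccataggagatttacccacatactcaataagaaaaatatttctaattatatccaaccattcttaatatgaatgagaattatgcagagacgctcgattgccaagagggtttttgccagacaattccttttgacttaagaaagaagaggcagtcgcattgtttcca
*Acta1*: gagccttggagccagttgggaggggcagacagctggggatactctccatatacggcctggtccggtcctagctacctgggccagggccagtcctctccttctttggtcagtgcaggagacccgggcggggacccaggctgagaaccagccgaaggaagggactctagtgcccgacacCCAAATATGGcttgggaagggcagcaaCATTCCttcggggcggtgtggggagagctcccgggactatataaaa
*Tnni1*: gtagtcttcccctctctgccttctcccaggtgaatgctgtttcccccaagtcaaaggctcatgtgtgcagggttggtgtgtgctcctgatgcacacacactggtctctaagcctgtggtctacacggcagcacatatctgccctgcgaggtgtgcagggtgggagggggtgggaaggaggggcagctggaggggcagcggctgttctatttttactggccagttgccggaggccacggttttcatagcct
The *Myh4* stretch held 1 match to each of the 3 motifs, the *Myh1* stretch a MEF2 site with the same letters and an MCAT element, and the *Acta1* stretch a CArG box and an MCAT element. No match was found in the *Myh2* and *Tnni1* stretches, which says only that these letters are not in these windows. RefSeq gave 35 promoters for 28 of the 36 genes. In the window from 250 bases before to 50 bases after the start, the CArG box was in 5 of the 35 (14.3%, against 1.63% of all 32851 promoters), the MEF2 site in 5 (14.3% against 3.19%), the MCAT element in 11 (31.4% against 14.7%) and the E-box CANNTG, the site of the MyoD family, in 29 (82.9% against 72.3%). These motifs can overlap and promoters of one gene share bases, so the shares are descriptions only.

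Summed over the 36 genes, 10 of the 12 libraries held 130 to 262 CPM, and the remaining 2, both niacin-treated, held 5182 (4506) and 5286 CPM (4507). In counts, the members took 3580 to 6116 reads (0.0128% to 0.0291% of all counts) in the 10 libraries, 119675 (0.522%) in 4506 and 115842 (0.547%) in 4507. The split by fibre type was uneven. The 14 fast-fibre genes summed to 61.5 to 141 CPM in the 10 other libraries, 3622 CPM in 4506 and 3665 CPM in 4507. The 16 shared genes summed to 43.3 to 107 CPM, 1541 CPM and 1612 CPM in the same order. The 6 slow-fibre genes summed to only 6.64 to 14.3 CPM in the 10 other libraries, 19.7 CPM in 4506 and 9.26 CPM in 4507, so that 4507 lay inside the range of the others. Fast-fibre genes gave 69.9% and 69.3% of all member counts in 4506 and 4507 against 47.3% to 64.1% elsewhere, and slow-fibre genes 0.381% and 0.175% against 3.66% to 8.93%. The low slow-fibre shares of 4506 and 4507 went with their high totals, since their slow-fibre sums were not below those of the others. *Tnni1* had the most counts of the 6 slow-fibre genes in every library, at 111 to 214 counts, with 157 in 4506 and 111 in 4507. The libraries 4506 and 4507 are set apart here because of these values. They came from the same treatment group as 4505 and 4508. The summed fast-fibre levels of 4505 and 4508, 119.5 and 141 CPM, were just above the 61.5 to 110.5 CPM of the 8 nerves not given niacin. In bulk RNA, more fibres and more RNA per fibre cannot be told apart.

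**Figure D1:**
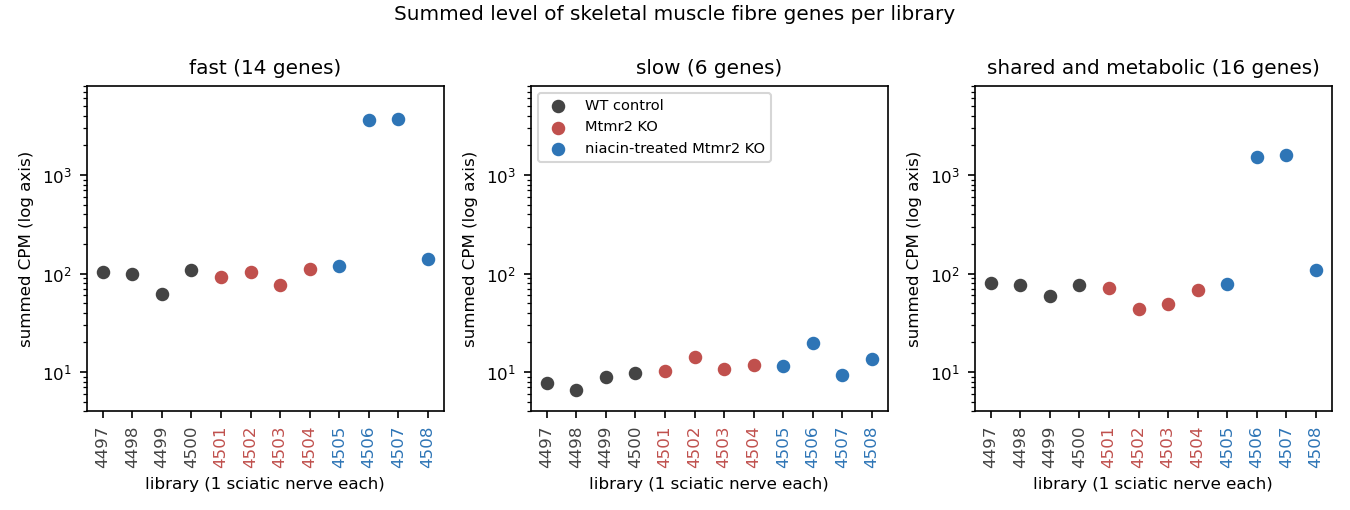
Summed CPM of the fast-fibre, slow-fibre and shared genes in each of the 12 libraries on a log scale, coloured by the 3 groups, each point 1 library. Niacin-treated 4506 and 4507 stand at 3622 and 3665 CPM for the fast-fibre genes against at most 141 CPM elsewhere, while their slow-fibre sums are 19.7 and 9.26 CPM against 6.64 to 14.3 CPM.

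Of the 4 myosin heavy chains on the lists, the motors of the thick filament, *Myh4* reached the highest level. It stood at 13.8, 9.8, 2.03 and 13.3 CPM in WT control 4497, 4498, 4499 and 4500, 15.1, 1.7, 1.86 and 15.4 CPM in *Mtmr2* KO 4501, 4502, 4503 and 4504, and 18.3, 974, 662 and 13.2 CPM in niacin-treated 4505, 4506, 4507 and 4508. It was 53.4-fold (4506) and 36.3-fold (4507) the highest of the other 10 libraries, which themselves spread from 1.7 to 18.3 CPM, with WT control 4499 and *Mtmr2* KO 4502 and 4503 near 2 CPM and the other 7 near 10 CPM or above. *Myh1* was at 0.472, 0.61, 0.653 and 0.444 CPM in WT control, 1.88, 0.492, 0.928 and 2.11 CPM in *Mtmr2* KO and 1.81, 17.8, 167 and 1.8 CPM in niacin-treated libraries. The high value was in 4507, 79.2-fold the highest of the 10, and 4506 stood at 8.4-fold. *Myh2*, at 1.38, 0.61, 0.617 and 2.18 CPM in WT control, 0.731, 0.492, 0.384 and 0.529 CPM in *Mtmr2* KO and 0.832, 6.15, 43.7 and 12.1 CPM in niacin-treated libraries, gave another order. Here 4508 exceeded 4506, and only 4507 was above all 10 other libraries, by 3.62-fold. The slow heavy chain *Myh7* was at 0.145, 0.108, 0 and 0.239 CPM in WT control, 0.209, 0.403, 0.48 and 0.432 CPM in *Mtmr2* KO and 0, 1.99, 0.274 and 0.257 CPM in niacin-treated libraries. Library 4506 was above the rest, but at 46 counts against 22504 of *Myh4*, and 4507 with 6 counts was inside the range of the other 10. Per kb of exon, *Myh4* stood at 162 CPM per kb in 4506 and 110.1 in 4507, *Myh1* at 2.79 and 26.4, *Myh2* at 0.862 and 6.12 and *Myh7* at 0.231 and 0.0318, which puts the level of *Myh4* first and that of *Myh7* last in both.

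As a share of the counts of these 4 heavy chains, *Myh4* took 97.4% in 4506 (Wilson 95% interval 97.2% to 97.6%, of 23102 counts) and 75.8% in 4507 (75.2% to 76.4%, of 19144 counts), where *Myh1* took 19.2% and *Myh2* 5.0%. The 2 libraries with nearly equal sums over the 36 genes thus differed in their fast heavy chains well beyond counting error, the only error these intervals cover. In 4508, with 639 counts, *Myh2* took 44.1% (40.3% to 48.0%) and *Myh4* 48.4%. The share of *Myh7* was highest in *Mtmr2* KO 4502 and the library labelled *Mtmr2* KO 4503, at 13% of 69 and 13.2% of 114 counts. In niacin-treated 4505 it was 0 of 427 counts, which allows a share of up to 0.703%.

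**Figure D2:**
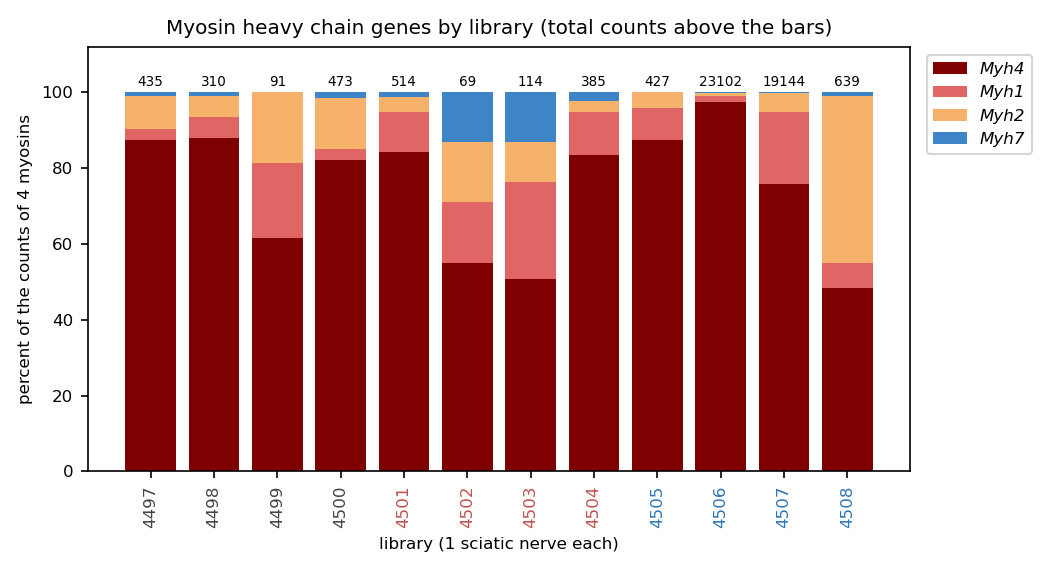
Share of counts (percent, from 0 to 100) taken by *Myh4*, *Myh1*, *Myh2* and *Myh7* among these 4 myosin heavy chains, stacked for each of the 12 libraries. *Myh4* fills 97.4% of the bar of niacin-treated 4506 and 75.8% of that of 4507, and *Myh2* is largest in 4508 at 44.1%.

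The troponins, which switch the thin filament on, split by fibre type in the same libraries. Fast troponin T, *Tnnt3*, was at 11.5, 14, 4.24 and 14.2 CPM in WT control, 8.7, 4.25, 2.62 and 11.5 CPM in *Mtmr2* KO and 13.1, 677, 794 and 25.5 CPM in niacin-treated libraries. Fast troponin I, *Tnni2*, was at 4.4, 3.81, 1.41 and 5.63 CPM in WT control, 2.89, 1.39, 0.512 and 5.05 CPM in *Mtmr2* KO and 4.7, 243, 296 and 8.48 CPM in niacin-treated libraries. The genes lie near each other (*Tnni2* at chr7:142441808-142444410, *Tnnt3* at chr7:142498836-142516009, GRCm38, forward strand), and both were at least 26.6-fold the highest of the other 10 libraries in 4506 and in 4507. Their slow counterparts did not follow. *Tnni1* was at 5.45, 4.2, 5.51 and 6.76 CPM in WT control, 6.47, 7.25, 6.85 and 7.35 CPM in *Mtmr2* KO and 8.03, 6.8, 5.07 and 6.72 CPM in niacin-treated libraries, and neither 4506 nor 4507 was outside the range of the other libraries. *Tnnt1* was at 1.02, 0.898, 1.81 and 1.13 CPM in WT control, 1.46, 3.4, 1.02 and 1.44 CPM in *Mtmr2* KO and 1.96, 4.68, 1.92 and 2.27 CPM in niacin-treated libraries. Only 4506 was above the 10 other libraries, by 1.38-fold, while 4507 was in their range and *Mtmr2* KO 4502 was next highest. *Tnnc1*, the calcium sensor of slow fibres, was at 0.981, 1.11, 1.49 and 1.4 CPM in WT control, 1.91, 3.09, 2.08 and 2.45 CPM in *Mtmr2* KO and 1.47, 5.41, 1.51 and 2.83 CPM in niacin-treated libraries. Again 4506 alone exceeded the others, by 1.75-fold. Fast troponin C, *Tnnc2*, had 1 count in 4502, 3 in 4505, 3 in 4506 and 0 in the other 9 libraries, CPM values being 0, 0, 0 and 0 CPM in WT control, 0, 0.0447, 0 and 0 CPM in *Mtmr2* KO and 0.147, 0.13, 0 and 0 CPM in niacin-treated libraries. It was thus the one fast-fibre gene at the detection floor in both 4506 and 4507. Of its 800 exon bases, 74.0% are shared with *Ube2c* on the opposite strand, itself at 0.606 to 2.46 CPM, and the sources used here do not give the strand setting of the counting, so what the counting kept of *Tnnc2* reads was not tested.

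The myosin light chains, which sit on the neck of the myosin head, gave the same split. The fast regulatory light chain *Mylpf* was at 8.18, 8.19, 2.25 and 6.86 CPM in WT control, 3.52, 1.75, 1.31 and 6.68 CPM in *Mtmr2* KO and 6.21, 397, 479 and 11.1 CPM in niacin-treated libraries. The fast essential light chain *Myl1* was at 6.0, 6.14, 2.65 and 7.68 CPM in WT control, 4.21, 1.7, 1.22 and 3.84 CPM in *Mtmr2* KO and 4.45, 198, 209 and 8.48 CPM in niacin-treated libraries. Both were at least 23.3-fold above every other library in 4506 and 4507, and 4508 was the highest of the remaining 10. The slow light chains were near the floor: *Myl2* was at 0.0727, 0.287, 0.0363 and 0.102 CPM in WT control, 0.139, 0.134, 0.256 and 0.144 CPM in *Mtmr2* KO and 0.0979, 0.476, 0.411 and 0.214 CPM in niacin-treated libraries. *Myl3* was at 0.145, 0.0359, 0.0725 and 0.0682 CPM in WT control, 0.139, 0.0447, 0.032 and 0.048 CPM in *Mtmr2* KO and 0, 0.39, 0.0913 and 1.16 CPM in niacin-treated libraries. Its highest value was in 4508 at 27 counts, against 1 to 4 in the libraries not given niacin, 9 in 4506 and 2 in 4507.

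Myosin-binding protein C braces the thick filament and the alpha-actinins anchor actin in the Z disc. Fast *Mybpc2* was at 2.43, 2.23, 0.907 and 2.9 CPM in WT control, 2.47, 1.3, 0.704 and 3.12 CPM in *Mtmr2* KO and 2.94, 134, 148 and 4.07 CPM in niacin-treated libraries. The slow-type protein *Mybpc1*, which fast fibres also carry, was at 0.145, 0.467, 0.472 and 0.99 CPM in WT control, 0.661, 1.03, 0.672 and 0.577 CPM in *Mtmr2* KO and 0.881, 10.5, 47.4 and 2.65 CPM in niacin-treated libraries. Both were above all other libraries in 4506 and 4507, but *Mybpc1* was 4.51-fold higher in 4507 than in 4506 (exact 95% interval 3.91 to 5.2, counting error only) and *Mybpc2* only 1.1-fold (1.05 to 1.16). *Actn3*, the actinin of fast fibres, was at 23.6, 17.5, 19.8 and 16.5 CPM in WT control, 13.2, 14.9, 22.2 and 16.9 CPM in *Mtmr2* KO and 20.6, 255, 213 and 11.1 CPM in niacin-treated libraries. Both 4506 and 4507 were at least 9.02-fold above the rest, and 4508 was the lowest of the 12, where for *Myh2* it was the second highest. *Actn2*, the actinin of all fibres, was at 0.581, 0.503, 0.762 and 0.546 CPM in WT control, 0.766, 0.761, 0.608 and 1.06 CPM in *Mtmr2* KO and 0.881, 6.11, 15.3 and 2.7 CPM in niacin-treated libraries, with 4507 above 4506 and 4508 next.

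The remaining contractile genes are shared by the fibre types, except *Myoz1*, which is on the fast-fibre list. Skeletal actin, *Acta1*, was at 10.2, 13.6, 1.56 and 11.6 CPM in WT control, 7.52, 2.24, 2.62 and 6.73 CPM in *Mtmr2* KO and 9.44, 474, 400.4 and 20.5 CPM in niacin-treated libraries. The giant spring protein titin, *Ttn*, was at 4.43, 3.02, 2.14 and 4.64 CPM in WT control, 4.63, 7.29, 4.58 and 5.81 CPM in *Mtmr2* KO and 5.19, 196, 169 and 12.5 CPM in niacin-treated libraries. Both were at least 13.4-fold above every other library in 4506 and 4507, and 4508 was next. Nebulin (*Neb*), which measures thin filament length, was at 3.37 to 9.68 CPM in the 10 other libraries, 97.2 CPM in 4506 and 102 CPM in 4507. Of the Z disc genes, telethonin (*Tcap*) was at 0.254 to 4.02 CPM, 34 and 39.9 CPM in the same order. Calsarcin *Myoz1* was at 0.29 to 1.33, 53.1 and 53.7 CPM. In these genes 4506 and 4507 were close to each other. Myotilin (*Myot*), at 0.352 to 1.71 CPM in the 10, differed more between the pair, with 17.2 CPM in 4506 and 35.7 CPM in 4507. The actin-binding *Xirp2* did so too, at 0.0359 to 2.27 CPM in the 10, 28.7 CPM in 4506 and 65.2 CPM in 4507. Cypher (*Ldb3*) was at 1.49 to 6.14 CPM in the 10, 32.6 CPM in 4506 and 34.4 CPM in 4507.

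Genes of the triad, where the T-tubule meets the sarcoplasmic reticulum, differed in how much RNA the other nerves held. The fast calcium pump *Atp2a1* was at 2.8, 3.56, 1.7 and 3.51 CPM in WT control, 5.95, 1.03, 1.38 and 5.77 CPM in *Mtmr2* KO and 5.97, 199, 149.9 and 4.92 CPM in niacin-treated libraries. The calcium buffer parvalbumin, *Pvalb*, which fast fibres hold in large amounts, was at 6.9, 9.55, 2.72 and 10.9 CPM in WT control, 4.73, 13.7, 2.75 and 8.31 CPM in *Mtmr2* KO and 8.27, 370.2, 342 and 10.9 CPM in niacin-treated libraries. These 2 were at least 25-fold above the other libraries in both 4506 and 4507. Calsequestrin *Casq1*, the calcium store of the reticulum, was at 22.5, 21.5, 22.2 and 22.9 CPM in WT control, 28.3, 59.3, 39.8 and 30.1 CPM in *Mtmr2* KO and 31.1, 96.9, 107 and 28 CPM in niacin-treated libraries. Every nerve held over 20 CPM, and 4506 and 4507 exceeded its highest other library, *Mtmr2* KO 4502, only 1.63-fold and 1.8-fold. The release channel *Ryr1* was at 10.1, 6.79, 6.06 and 7.78 CPM in WT control, 8.35, 3.4, 2.02 and 6.44 CPM in *Mtmr2* KO and 8.61, 44.6, 35.9 and 5.57 CPM in niacin-treated libraries, with the pair 4.39-fold and 3.54-fold above the highest other library. Triadin (*Trdn*), which ties calsequestrin to that channel, was at 0.16 to 1.97 CPM in the 10, 39.2 CPM in 4506 and 44.6 CPM in 4507. The voltage sensor *Cacna1s* was at 1.52 to 7.36 CPM in the 10, 10.6 CPM in 4506 and 12.4 CPM in 4507. Its 1.44-fold and 1.68-fold distance from the highest other library, the one labelled *Mtmr2* KO 4503, was the smallest among the shared genes.

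Among the energy supply genes, muscle creatine kinase, *Ckm*, which buffers ATP, was at 3.38, 3.52, 0.689 and 2.9 CPM in WT control, 2.92, 0.313, 0.224 and 3.12 CPM in *Mtmr2* KO and 4.36, 252, 272 and 6.08 CPM in niacin-treated libraries. Its 41.5-fold and 44.7-fold distance from the other libraries was the largest of the shared genes in both. Myoglobin, *Mb*, the oxygen store of oxidative fibres, was at 0.40, 0.359, 0.181 and 0.171 CPM in WT control, 0.383, 0.358, 0 and 0.24 CPM in *Mtmr2* KO and 0.294, 10.6, 53.8 and 5.52 CPM in niacin-treated libraries. Here 4507 was 5.08-fold above 4506 (exact 95% interval 4.42 to 5.85), and 4508 reached 13.8-fold the highest of the remaining 9. Of the exon bases of *Mb*, 31.9% are shared with *Gm49540* on the other strand. Beta-enolase (*Eno3*), a glycolytic enzyme, was at 8.1 to 14.3 CPM in the 10, 163 CPM in 4506 and 205 CPM in 4507. Glycogen phosphorylase (*Pygm*) was at 10.6 to 26.1 CPM in the 10, 124 CPM in 4506 and 78.8 CPM in 4507. Neither *Eno3* nor *Pygm* was under 8.1 CPM in any nerve.

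Counted over the lists, 4506 exceeded all 10 other libraries in 12 of 14 fast-fibre genes (not *Myh2* and *Tnnc2*), 4 of 6 slow-fibre genes and 16 of 16 shared genes, and 4507 did so in 13, 1 and 16. Both did in 29 of the 36, against 252 of 17257 tested genes (1.46%). The median ratio to the median of the 10 others was 49.8 in 4506 and 50.3 in 4507 over 13 fast-fibre genes, 23.6 and 41.8 over the 16 shared genes, and 3.20 and 1.05 over the 4 slow-fibre genes for which one could be formed. Because the genes were chosen on these libraries, these counts describe the choice as well as the nerves.

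**Figure D3:**
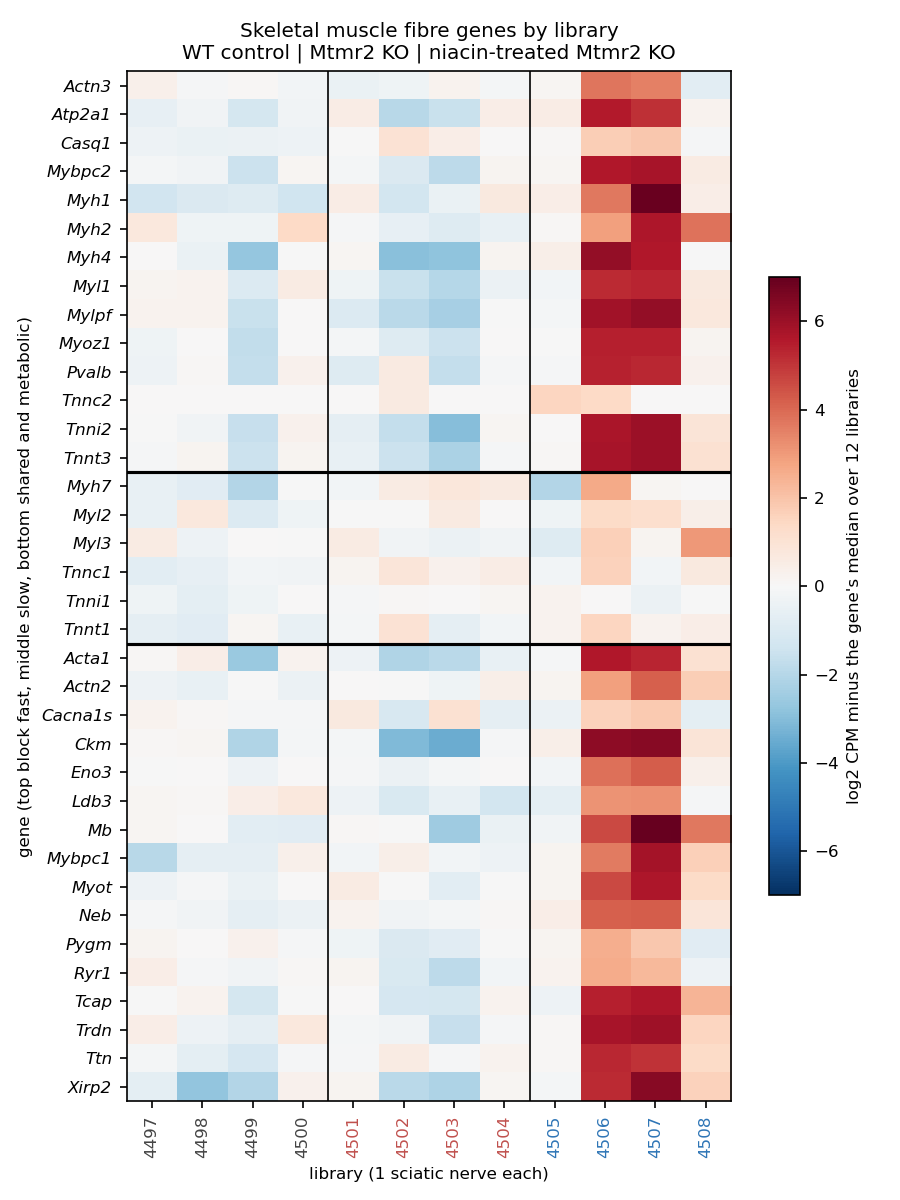
Log2 CPM (prior count 2) of each of the 36 genes, one row a gene ordered by fibre-type list, one column a library, with the median of each row over the 12 libraries subtracted. The columns of niacin-treated 4506 and 4507 stand out in the shared rows and most fast-fibre rows, but not in *Tnnc2*, and *Myh2* in 4506 is below 4508. Of the 6 slow-fibre rows, 4506 is above the other 10 libraries in 4 and 4507 in 1, and neither is in *Tnni1*.

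Ratios between slow and fast members of one pair, formed within a library from levels per kb of exon (log2, pseudocount 0.5 counts), set the isoforms side by side. In the pairs of *Mybpc1* and *Actn2* these genes take the slow place but are on the shared list, so those ratios do not set slow against fast. For troponin I, *Tnni1* to *Tnni2*, the log2 ratio was −6.42 in 4506 and −7.13 in 4507 against −1.60 to 2.43 in the other 10. For troponin T, *Tnnt1* to *Tnnt3*, it was −7.65 and −9.16 against −4.42 to −0.80. *Myl2* to *Mylpf* stood at −10.5 and −11.0 against −7.37 to −3.16, and *Myl3* to *Myl1* at −8.89 and −10.8 against −7.49 to −2.83. In these 4 pairs both libraries lay on the fast side of all others. *Myh7* to the 3 fast heavy chains gave −9.47 in 4506, inside the range of −10.2 to −3.16, and −12.0 in 4507, below it. The −10.2 was that of 4505, with 0 counts of *Myh7*, where the ratio rests on the pseudocount. The next lowest was WT control 4499 at −7.99, also with 0 counts. Those of the 10 with *Myh7* counts ran from −7.08 to −3.16, all above 4506. *Mybpc1* to *Mybpc2* gave −4.0 and −1.97 against −4.23 to −0.39, with both libraries inside the range. *Actn2* to *Actn3* gave −5.77 in 4506, just below the range of −5.69 to −2.42, and −4.19 in 4507, inside it. For troponin C, whose fast member was at the floor, the ratio rests on the pseudocount. The slow members *Myl2*, *Myl3* and *Myh7* also had few counts, and the −7.49 of *Myl3* to *Myl1* was 4505, with 0 counts of *Myl3*. Over all pairs, 8 group means of the ratio moved by at least the SD of the group with a pseudocount of 5. Without division by length 4 did so. In 4499, 4502 and 4503 the level of *Tnni1* per kb exceeded that of *Tnni2*, and in the other 9 libraries it was lower.

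**Figure D4:**
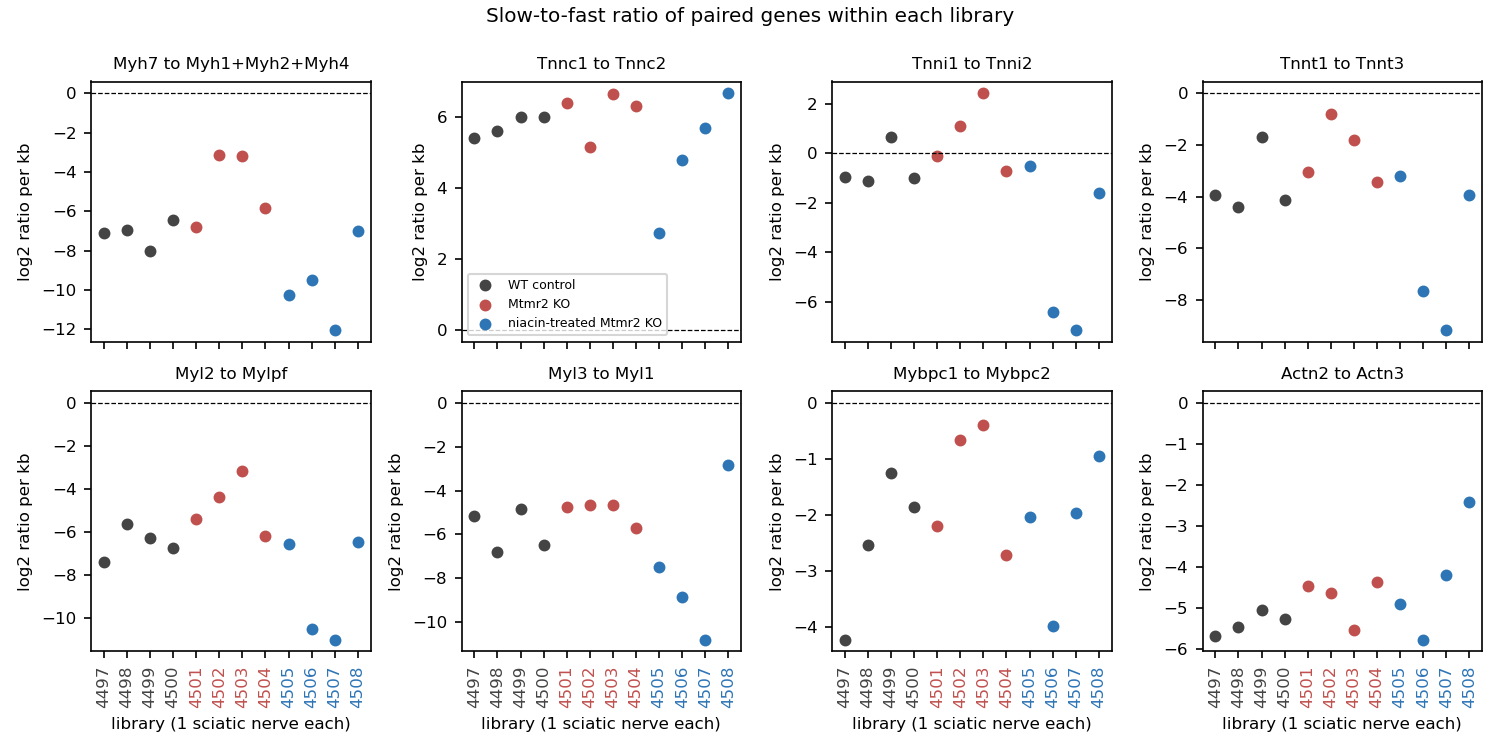
Log2 ratio of the slow to the fast member of 8 pairs in each of the 12 libraries, from levels per kb of exon, each point 1 library and groups by colour. *Mybpc1* and *Actn2*, which take the slow place in their pairs, are shared genes. For *Tnni1* to *Tnni2* niacin-treated 4506 and 4507 lie at −6.42 and −7.13, below the −1.60 to 2.43 of the other 10.

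The RNA of the 36 genes was nearly the same in amount in 4506 and 4507 but not in make-up. The 4507 to 4506 ratio had an exact 95% interval above 1 for 17 and below 1 for 12 of the 34 genes for which one was formed, again for counting error only. Higher in 4507 were *Myh1* at 9.43-fold (8.51 to 10.5), *Myh2* at 7.1-fold (5.95 to 8.53), *Mb* and *Mybpc1* as above, *Actn2* at 2.5-fold, *Xirp2* at 2.27-fold and *Myot* at 2.07-fold. Higher in 4506 were *Myh4*, at a ratio of 0.68 (0.665 to 0.694), *Pygm* at 0.633 and *Atp2a1* at 0.754, and among slow-fibre genes *Myh7* at 0.137 (0.048 to 0.323), *Tnnc1* at 0.278 and *Tnnt1* at 0.41. So 4506 held more of the type IIB heavy chain and of the few slow-fibre transcripts, and 4507 more of the type IIA and IIX heavy chains and of myoglobin. Each is 1 library, and how such make-up varies between nerves cannot be read from a pair.

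**Figure D5:**
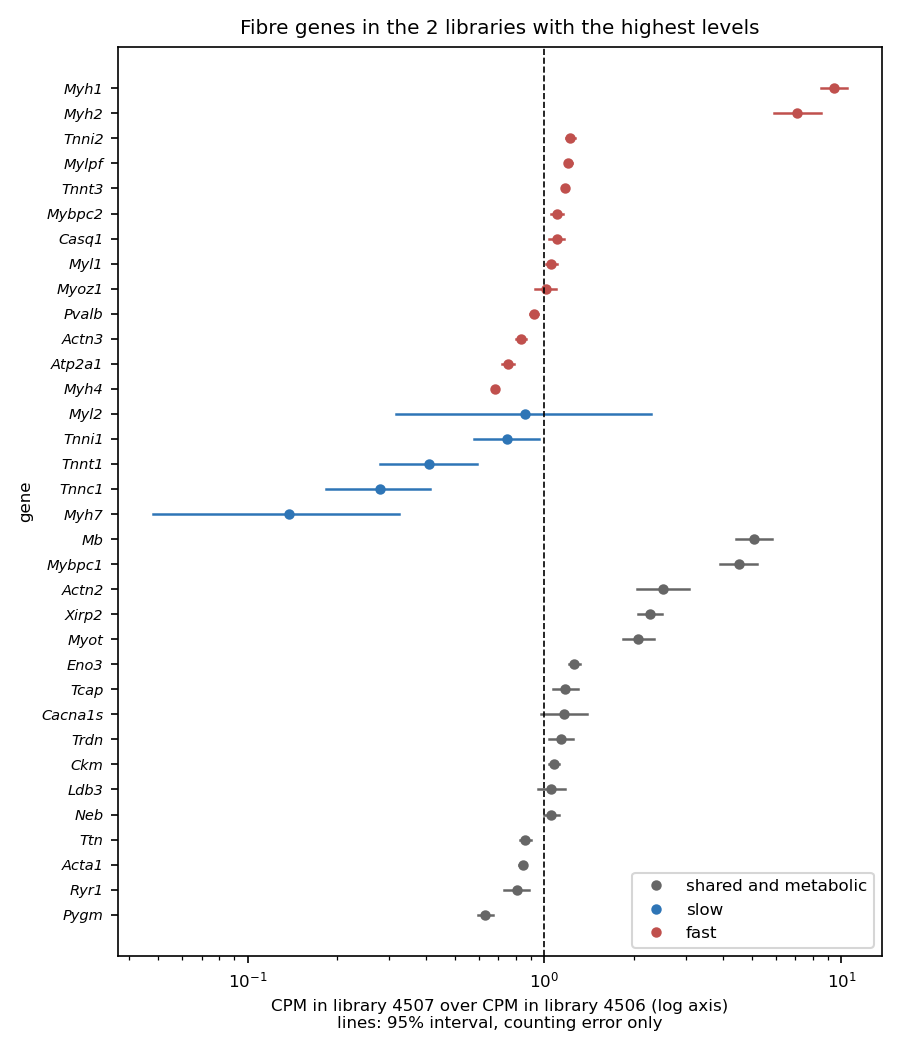
Ratio of the level in niacin-treated 4507 to that in 4506 for 34 genes on a log axis, ordered by ratio within each fibre-type list, with exact 95% intervals for counting error. *Myh1*, *Myh2*, *Mb* and *Mybpc1* lie at 9.43, 7.10, 5.08 and 4.51, and *Myh7* lies lowest at 0.137.

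Niacin-treated 4508, singled out after its values were seen, was above the other 9 (4506 and 4507 left out) in 20 of the 36 genes, 7 of them fast-fibre, 1 slow-fibre and 12 shared. Among tested genes that was 18 of 31 members, beside 1738 of all 17257 (10.1%). The distance was 13.8-fold for *Mb*, 7.95-fold for *Myl3*, 5.53-fold for *Myh2*, 4.65-fold for *Tcap* and 2.55-fold to 2.58-fold for *Mybpc1*, *Xirp2* and *Actn2*. By contrast *Myh4* in 4508, at 13.2 CPM, was inside the range of the 9, and *Actn3* was at 0.47 of their highest level. Of these 7 genes, all but *Myl3* were also higher in 4507 than in 4506. At the low end, *Mtmr2* KO 4502 and the library labelled *Mtmr2* KO 4503 had the lowest *Ckm*, *Myl1*, *Mylpf* and *Tnni2* of the 12 together with WT control 4499 near them.

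In the *Mtmr2* KO against WT control comparison (edgeR quasi-likelihood test on all 12 libraries, Benjamini-Hochberg adjusted p under 0.05), 0 of 31 tested muscle genes were called in either direction, where 0.0464% of all 17257 tested genes were called higher and 0.22% lower. At an unadjusted p under 0.05 there was 1 member of 31, beside 2976 of the 17257 genes. DESeq2 and limma-voom called 0 members, and leaving out 4503 left 0. The median log2 fold change was −0.20 over 13 fast-fibre, 0.58 over 3 slow-fibre and −0.07 over 15 shared genes, against 0.03 over all genes, and without 4503 it was 0.04, 0.78 and −0.08. Groups did not overlap for 3 members. *Casq1* was higher in *Mtmr2* KO at 39.4 ± 14.2 CPM against 22.3 ± 0.568 CPM (mean ± SD, n = 4 each). *Tnnc1* was higher at 2.38 ± 0.52 against 1.25 ± 0.238 CPM. *Ldb3* was lower at 2.17 ± 0.661 against 4.78 ± 1.08 CPM. Of all tested genes, 3.85% did not overlap in the higher and 5.48% in the lower direction, so 2 and 1 of 31 members are near the background. Without 4503 the same 3 genes did not overlap, where 5.52% and 7.54% of tested genes did not, and the *Mtmr2* KO levels were 39.2 ± 17.4 CPM for *Casq1*, 2.48 ± 0.587 CPM for *Tnnc1* and 2.04 ± 0.745 CPM for *Ldb3* (mean ± SD, n = 3).

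In the niacin against *Mtmr2* KO comparison, 19 members were called higher and 0 lower, beside 0.695% of all tested genes called higher and 0.73% lower. Nothing is read from this count, since the genes were selected on it. The 8 fast-fibre genes were *Myl1*, *Myh2*, *Myoz1*, *Mybpc2*, *Atp2a1*, *Mylpf*, *Tnni2* and *Tnnt3*, the 11 shared genes were *Trdn*, *Mybpc1*, *Eno3*, *Tcap*, *Actn2*, *Myot*, *Neb*, *Xirp2*, *Ttn*, *Ckm* and *Acta1*, and no slow-fibre gene was among them. Median log2 fold changes were 5.16 over the fast-fibre, 0.24 over the slow-fibre and 4.10 over the shared genes, against −0.04 over all genes. *Ckm* had the largest, 6.36 ± 1.33 (SE), and *Tnni1* the lowest, −0.07 ± 0.18. *Myh4*, at 5.62 ± 1.33, was not among the 19 and its niacin group was spread widely, at 417 ± 481 CPM (mean ± SD, n = 4). Groups did not overlap for 7 members, all higher in niacin-treated nerves (*Acta1*, *Ckm*, *Myh2*, *Myl1*, *Neb*, *Tnnt3* and *Trdn*), beside 3.6% of tested genes higher and 3.38% lower. Without 4503 the same 7 did not overlap, beside 4.18% and 3.94% of tested genes. These values rested on 4506 and 4507. Without 4506 and 4507 no member was called in this comparison, nor was any gene, and the medians were 0.88 for fast-fibre, 0.07 for slow-fibre and 0.91 for shared genes. Without the library labelled *Mtmr2* KO 4503, 0 members and 13 genes in all were called with medians of 4.97, 0.18 and 4.02, and leaving out any one of 4497, 4498, 4499, 4500, 4501, 4506 or 4507 also left 0 members.

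In the niacin against WT control comparison 0 members and 0% of all genes were called higher, and 0% lower, by edgeR. At an unadjusted p under 0.05 there were 29 members and 4254 genes, and the smallest adjusted p was 0.0833. DESeq2 called 26 members among 1070 genes and limma-voom 29 among 7311. Medians were 4.96, 1.16 and 4.61 for fast-fibre, slow-fibre and shared genes against 0.02 over all genes, with *Myh1* at 6.43 ± 1.34 (SE) the largest. Groups did not overlap for 10 members, all higher in niacin-treated nerves (*Actn2*, *Atp2a1*, *Casq1*, *Ckm*, *Mybpc2*, *Myh1*, *Myot*, *Neb*, *Tnnt1* and *Ttn*), where 14.8% of tested genes were higher without overlap and 16.6% lower. The 3 comparisons share their groups and are not independent of one another. Without 4503, 18 members and 304 genes were called with medians of 4.95, 1.16 and 4.61, and without 4506 and 4507 it was 0 and 0, with medians of 0.67, 0.75 and 0.96.

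Other muscle genes outside the 36, on lists also drawn up with results of these data known, gave smaller values in the niacin against *Mtmr2* KO comparison. Of 22 tested sarcomere and Z disc genes, 2 rose: the kinase *Mylk4* (log2 fold change 4.53, edgeR adjusted p = 0.0497) and the actin-anchoring *Nrap* (3.08, edgeR adjusted p = 0.0425), with a median of 1.55 over the list. Of 14 triad genes, sarcalumenin *Srl* (2.99, edgeR adjusted p = 0.0432) and the calcium-binding *Hrc* (3.87, edgeR adjusted p = 0.0428) rose, with a median of 0.84. Of 17 energy genes, AMP deaminase *Ampd1* (4.97, edgeR adjusted p = 0.0425) and the muscle cytochrome oxidase subunit *Cox6a2* (5.4, edgeR adjusted p = 0.0425) rose, with a median of 0.76. Among 9 chaperone and atrophy genes, *Klhl41* rose (4.0, edgeR adjusted p = 0.0458) and the atrophy ubiquitin ligase *Fbxo32* fell (−0.87, edgeR adjusted p = 0.0401). Of 3 developmental genes, cardiac actin *Actc1* rose (5.19, edgeR adjusted p = 0.0470), at 105 CPM in 4506, 20.9 CPM in 4507 and 0.256 to 2.43 CPM elsewhere. No gene of these lists was called without 4506 and 4507. The calls and medians of these lists use the library labelled *Mtmr2* KO 4503 and are not given without it. Leaving it out, 13 genes in all were called in this comparison. The most abundant genes of the lists (*Tpm1*, *Tpm3* and *Tpm2*; *Atp2a2*, *Casq2* and *Asph*; *Aldoa*, *Gapdh* and *Pgk1*; *Cryab*, *Fbxo32* and *Hspb6*) are used by other cells too, and *Casq2*, at 62.5 to 143 CPM in the 10 other libraries, was at 124 and 125 CPM in 4506 and 4507.

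In the niacin against *Mtmr2* KO comparison, lists for cells and structures that lie near muscle fibres were called in 0 genes of 4 myogenic and satellite cell, 7 neuromuscular junction, 3 spindle and extraocular myosin, 3 heart and 8 smooth muscle genes tested. Of all tested genes 0.695% were called higher and 0.73% lower. In lists this short, 0 calls is near that share and says nothing about these cells. Summed, the myogenic list was at 58.1 CPM in 4506 and 64.6 CPM in 4507, above the 32.0 to 49.3 CPM of the other 10, and the part of these cells in the result was not tested. Most of the myogenic sum was *Mef2c*, at 45.4 CPM in 4506 and 49.6 CPM in 4507 against 23.6 to 36.1 CPM elsewhere. The satellite cell marker *Pax7* was at 0.563 CPM in 4506 and 0.0913 CPM in 4507, against 0 to 0.288 CPM elsewhere. *Myf6*, on the same list, was at 1.99 CPM in 4506 and 1.78 CPM in 4507, against 0 to 0.192 CPM elsewhere. Neither *Pax7* nor *Myf6* was among the 4 genes tested. Summed junction genes were at 57.3 and 43.0 CPM in 4506 and 4507, inside the 38.2 to 62.6 CPM of the other 10, and smooth muscle genes, at 1042 and 1341 CPM, inside 838 to 1759 CPM. On the latter list desmin, *Des*, the intermediate filament of all muscle types, stood apart from this sum, at 65.1 and 64.2 CPM against 7.20 to 24.1 CPM. Heart markers summed to 40.9 and 31.6 CPM, inside 19.1 to 58.6 CPM. The most abundant were *Myh6*, at 8.96 to 46.6 CPM in the 12 libraries, and *Tnni3*, at 4.80 to 10.1 CPM. *Tnnt2* was at 5.07 CPM in 4506 and 2.28 CPM in 4507, against 1.15 to 3.36 CPM elsewhere. *Nppa* was at 0 to 0.196 CPM in every library. White adipocyte genes summed to 2731 and 3224 CPM, inside 629 to 3722 CPM, and of 9 tested the hormone leptin, *Lep*, rose with niacin (1.84, edgeR adjusted p = 0.0383) after being lower in *Mtmr2* KO than in WT control (−2.03, edgeR adjusted p = 0.0364), as was the lipid droplet coat *Plin1* (−1.84, edgeR adjusted p = 0.0448). The calls of *Lep* and *Plin1* use 4503 and are not given without it. Leaving it out, 13 genes in all were called for niacin against *Mtmr2* KO and 6 for *Mtmr2* KO against WT control. Over each single library left out, these totals ranged from 0 to 4180 and from 0 to 457. Non-myelinating Schwann cell genes summed to 682 and 584 CPM, inside 450 to 904 CPM. Perineurial and endoneurial genes summed to 1537 and 1633 CPM, inside 1246 to 1991 CPM, red blood cell genes to 321 and 433 CPM, inside 189 to 1081 CPM, and spindle and extraocular myosins to 39.4 and 21.6 CPM, inside 10.1 to 48.8 CPM. This last sum was mostly *Myh6* (8.96 to 46.6 CPM in the 12 libraries), and in 4506 alone *Myh7b*, at 9.61 CPM against 0.489 to 1.37 CPM elsewhere, and *Myh13*, at 1.65 CPM against 0.0359 to 0.492 CPM, were high. *Des*, *Myf6*, *Tnnt2*, *Myh7b* and *Myh13* were picked out after their values were seen.

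Outside the 36, the genes whose log2 CPM followed the summed fast-fibre genes most closely over the 12 libraries included *Ampd1* (Pearson r = 0.988), *Nrap* (0.978), *Txlnb* (0.976), *Cox6a2* (0.974), *Smyd1* (0.960), *Srl* (0.957), *Jsrp1* (0.957), *Klhl31* (0.953) and *Mylk4* (0.952). Of these, all but *Txlnb* and *Klhl31* were on the other muscle lists. The points share their libraries, and 4506 and 4507 lie far from the rest, so these are descriptions. Those that followed the summed slow-fibre genes included *Nipal2* (0.863), *Gm9920* (0.823), *Ppp1r2-ps4* (0.818), *Ube2cbp* (0.818), *Nudt16l1* (0.810), *Gm26857* (0.801), *Slc22a18* (0.787), *Lsmem1* (0.785) and *Hsf2* (0.783), none of them on a muscle list. Among the members themselves r with the fast-fibre sum ran from 0.992 for *Eno3* to −0.12 for *Tnni1*, with the slow-fibre *Tnnc1* at 0.41 and *Tnnt1* at 0.55.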

How the data were processed

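RNA-seq of polyA-selected RNA from 12 sciatic nerves was analysed from the counts that the authors deposited for each Ensembl gene, raw whole numbers. Per the labels and the submitters' processing notes, reads were demultiplexed with CASAVA 1.9, aligned with STAR to GRCm38 and tested with DESeq2. For the counting program, annotation release and strand setting, the sources used here give nothing. Of the authors' comparison tables, which hold fold changes and p-values, only the symbol column was used (42615 of 43432 genes had a symbol). Exon lengths and overlaps came from GENCODE M21 (42462 genes).

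The 36 genes and all lists were chosen with earlier results of these data known. A symbol on the lists, *Murc*, matched no gene. Genes passing filterByExpr (17257, of them 31 of the 36 members; *Tnnc2*, *Myh7*, *Myl2*, *Myl3* and *Mb* did not pass) were tested in 1 edgeR 4.0.16 quasi-likelihood model over 12 libraries with TMM factors (R 4.3.3), two-sided, with Benjamini-Hochberg adjustment over all tested genes and a threshold of 0.05. The fits were tested on simulated data. CPM used TMM-scaled library sizes, and ratios a pseudocount of 0.5 counts. Intervals are Wilson (shares) or exact Clopper-Pearson (library ratios) at 95%, and a count of 0 allows 3 counts. Libraries held 20763951 to 33191106 counts. Values in every library are given for 26 genes chosen by symbol, and the others by range. Of other lists, the 3 most abundant genes and those called are named, with genes from the 10 most like the fast sum and the 10 most like the slow sum. A few genes that this rule names are not reported here. Alternatives were DESeq2 1.42.0, limma 3.58.1 voom with quality weights, other scaling and count filters, only the groups compared, and each replicate left out. Leaving out 4506 and 4507 together was chosen after seeing the data.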

Additional observations from a re-analysis of the deposited data

Results flagged for a closer look

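In 105 groups of 4 libraries, 5 held a library whose gap to the nearest other exceeded Dixon's 95% limit, where chance gives about 1 in 20 groups. Niacin-treated 4507 stood apart for *Myh1* at 167 CPM (the other 3 of its group 1.80 to 17.8 CPM). Niacin-treated 4506 stood apart for the slow-fibre genes *Myh7* at 1.99 CPM (0 to 0.274) and *Tnnt1* at 4.68 CPM (1.92 to 2.27). The library labelled *Mtmr2* KO 4503 stood apart for *Myl2* at 0.256 CPM (0.134 to 0.144), on 8 counts, and *Mtmr2* KO 4501 for *Myl3* at 0.139 CPM (0.0320 to 0.0480), on 4 counts. For most fast-fibre and shared genes 4506 and 4507 are high together, so neither has a gap to the nearest other library.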

How the results depend on the processing

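In the niacin against *Mtmr2* KO comparison the 19 members called became 27 with DESeq2, 27 with at least 1 count in total, 1 with limma-voom, 11 with at least 10 counts in every library (25 members tested), and 0 with only the 2 groups or without 4506 and 4507. In niacin against WT control the 0 became 26 (DESeq2), 29 (limma-voom), 25 (at least 1 count in total) and 27 (2 groups only). Genes called in *Mtmr2* KO against WT control (46) became 683 (DESeq2), 108 (limma-voom), 91 (library totals), 341 (at least 1 count), 0 (2 groups) and 6 (without 4506 and 4507). For niacin against *Mtmr2* KO (246) they became 1078 (DESeq2), 2007 (limma-voom), 573 (at least 1 count), 0 (2 groups) and 0 (without 4506 and 4507), and library totals gave 193 higher and 79 lower in place of 120 and 126 and moved the median of all genes from −0.04 to 0.07. For niacin against WT control (0) they became 1070 (DESeq2), 7311 (limma-voom), 311 (at least 1 count) and 5586 (2 groups). Without 4506 and 4507 medians were 0.88 and 0.91 (fast, shared) against *Mtmr2* KO and 0.67 and 0.96 against WT control.

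Leaving out each replicate, genes called ranged from 0 to 457, 0 to 4180 and 0 to 3826 in the 3 comparisons as ordered above, with members from 0 to 0, 0 to 27 and 0 to 27. Niacin against *Mtmr2* KO had 27 members without 4502, 25 without 4505, 23 without 4508, 16 without 4504 and 0 when any one of the other 8 libraries was left out. Medians over fast-fibre genes ranged from −0.51 to 0.04, 4.60 to 5.56 and 4.36 to 5.35, over slow-fibre genes from 0.33 to 0.83, −0.09 to 0.46 and 0.61 to 1.29, and over shared genes from −0.24 to 0.01, 2.84 to 4.50 and 3.18 to 5.01. Over 21 alternatives, 42 of 1935 member fold changes had the other sign, none in a called member, with 28 in *Mtmr2* KO against WT control. Of the 42, 10 were without 4506 and 4507: against *Mtmr2* KO *Actn3* became −0.09, *Cacna1s* −0.83, *Casq1* −0.42, *Tnnc1* −0.16 and *Tnni1* 0.07, and against WT control *Actn3* −0.31, *Cacna1s* −0.62, *Ldb3* −0.75, *Pygm* −0.36 and *Ryr1* −0.14. Library totals also turned *Tnni1* against *Mtmr2* KO, to 0.03. By more than the spread 56 moved, 54 of them without 4506 and 4507. The cause of these changes was not tested. No paired analysis was possible because the groups share no replicate numbers. Counts near 0 limit *Tnnc2*, *Myl2*, *Myl3* and *Myh7*.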

Other observations

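Of the 17257 tested genes, 42 were at least 5 times the highest of the other 10 libraries in both 4506 and 4507. Of these, 21 were members and 12 were on the other muscle lists. The remaining 9, named after their values were seen, were *Klhl31*, *Apobec2*, *Sypl2*, *Fbxo40*, *Ky*, *Ppp1r3a*, *Rpl3l*, *Txlnb* and *Mypn*. *Apobec2* was at 7.66 CPM in 4506 and 16.6 CPM in 4507 against 0.147 to 0.728 CPM in the other 10, and *Sypl2*, a junctional protein of the triad, at 14.7 and 8.67 CPM against 0.134 to 0.856 CPM.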
